A study of Mus musculus with 6 samples.

Results

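The agrin and MuSK group of synapse organisers comprises 10 genes whose proteins build and maintain the neuromuscular junction, and they were taken by gene symbol from a table of 22180 genes. Of the 10 members, 9 had a probe set of their own (a set of array probes summarised as 1 value) and were measured: Musk, Lrp4, Dok7, Rapsn, Agrn, Ache, Etv5, Ncam1 and Prkar1a. The symbol Colq, the collagen tail that anchors acetylcholinesterase at the synapse, stood only on a probe set shared with Hacl1, so no value is given for it. Gastrocnemius, a calf muscle, was profiled on 6 Affymetrix arrays with 1 mouse per array. TAK1 knockout muscle came from 3 mice with the kinase TAK1 (gene Map3k7) deleted in skeletal muscle only, 3 weeks after deletion. Floxed control muscle came from 3 littermates that carried the floxed TAK1 gene. The Cre driver, whether the controls carried it, and the age and sex of the mice are not stated in the labels.

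At the neuromuscular junction the motor nerve releases agrin, which binds the receptor LRP4 on the muscle fibre, and LRP4 then activates the kinase MuSK. MuSK, with its adaptor DOK7, makes rapsyn gather acetylcholine receptors under the nerve terminal. Synaptic nuclei transcribe several of these genes at a high rate through ETS family factors, while in fibres that have lost their nerve MuSK and receptor subunits are also made along the whole fibre.

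The targeted gene and the tissue were examined first. Map3k7 had log2 values of 8.20, 8.28 and 8.17 in knockout muscle and 8.47, 8.32 and 8.42 in control muscle. Each knockout array was lower than each control array, but the difference did not pass (log2 fold change −0.19, SE 0.09, limma adjusted p = 0.686; two-sided exact permutation p = 0.1, the smallest that 3 against 3 arrays allow). Which exons the deletion removed is not stated, and non-muscle cells in the tissue retain Map3k7, so this transcript level cannot serve as proof of the genotype labels. All 8 fibre markers looked for were measured well above background, and the sum of their linear values was 102236 to 106392 in knockout and 110323 to 111891 in control muscle, with no overlap. Of the 8, 7 had negative log2 fold changes, and Myh1, a fast myosin heavy chain (−0.49, limma adjusted p = 0.418), and Mylpf, a fast myosin light chain (−0.46, adjusted p = 0.221), had the largest. Among the others Actn3 had 0.05, while Ckm, Myh4, Tnnt3, Acta1 and Pvalb lay between −0.10 and −0.002. Groups were apart for 3 of the 8, all lower in knockout muscle, against 6.65% of all genes. All 6 tendon cell markers also had negative values, with a median log2 fold change of −0.69, led by Kera (−1.43), and 4 had an unadjusted p under 0.05, though 0 passed over all genes (limma adjusted p of at least 0.425). Their summed linear values were 1096 to 2331 in knockout and 1980 to 3307 in control muscle, lowest in knockout 3. The fibroblast sum was 9765, 8139 and 5217 in knockouts 1, 2 and 3, so that knockout 1 lay above and knockout 3 below the 7061 to 8866 of control muscle. The part of fibre, tendon or fibroblast markers in the results was not tested.

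Musk had the largest difference among the 9 measured members and was the only one whose groups did not overlap (1 of 9 members, against 13.4% of all genes), but 0 of the 9 passed the test over all genes (limma with Benjamini-Hochberg adjustment, threshold 0.05), where 0.0947% of all genes passed. At an unadjusted p under 0.05 only Musk passed, 1 of 9 members, against 8.04% of all genes. Of the 9 members, 6 had a positive and 3 a negative log2 fold change, with a median of 0.05 against −0.0003 over all genes. The quartiles of the members were −0.03 and 0.23, and those of all genes −0.10 and 0.10. All 9 had mean values above 5.85 on the log2 scale, a guide to background taken as the 95th percentile of olfactory and vomeronasal receptor genes. The muscle acetylcholine receptor, which these proteins cluster, had 1 of 5 subunits called, Chrna1. In whole muscle a smaller share of a cell type and less RNA per cell cannot be told apart.

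**Figure D1:**
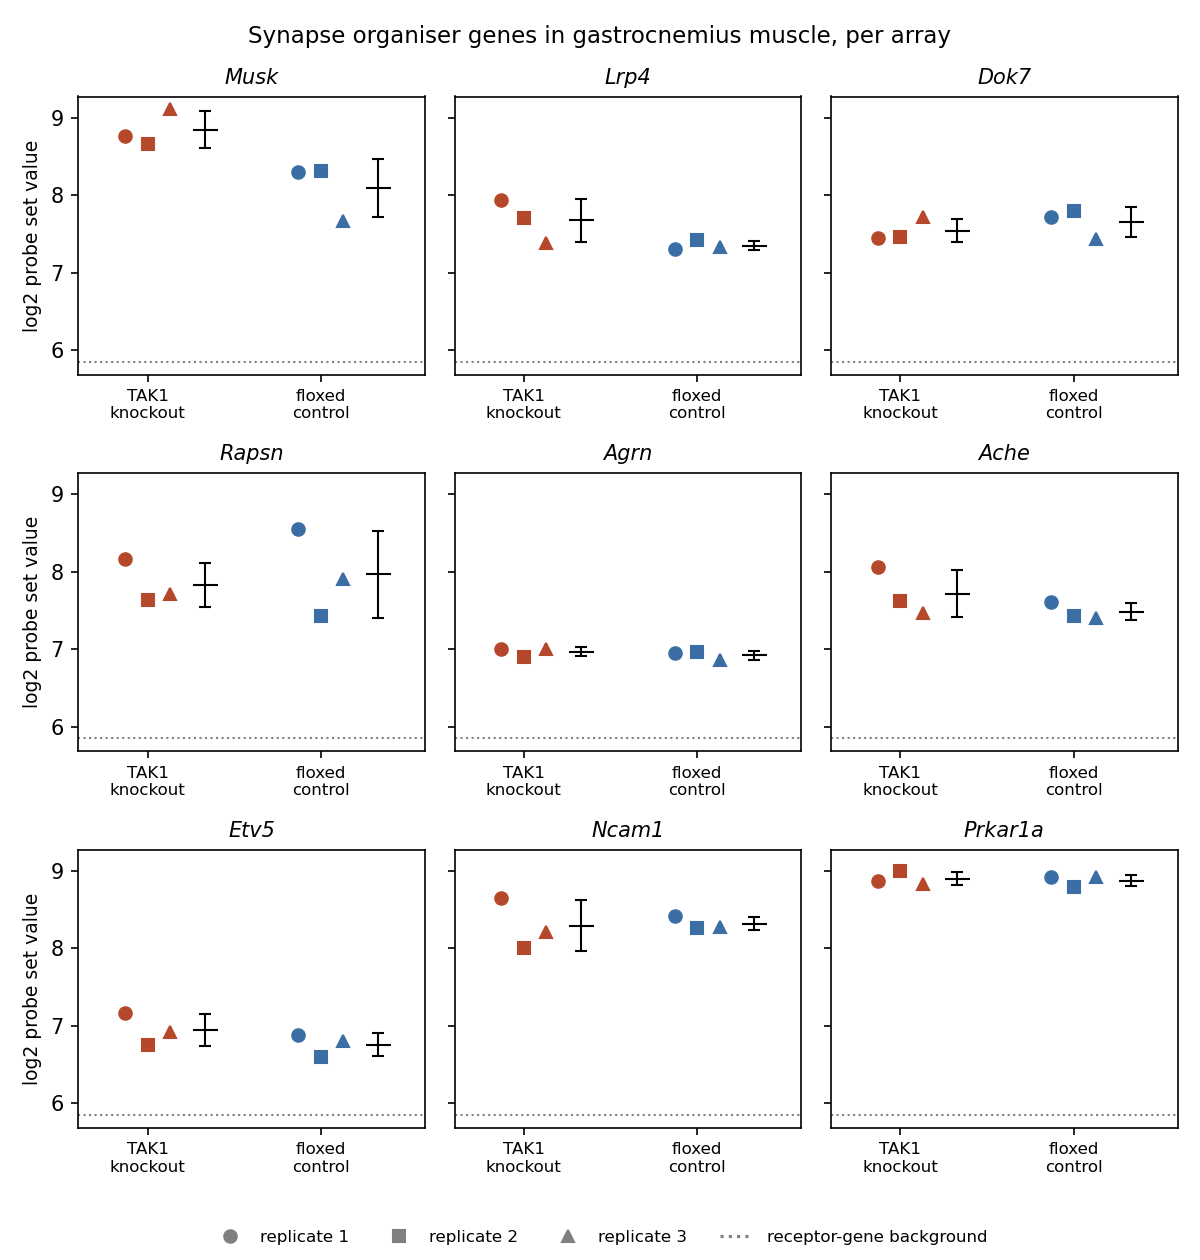
Log2 probe set values (vertical axis) of the 9 measured synapse organisers in TAK1 knockout arrays (left of each panel) and floxed control arrays (right). Symbols mark the replicate, bars give mean ± SD (n = 3), and the dotted line marks the receptor-gene background of 5.85. Musk is the only panel in which all knockout values lie above all control values.

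Musk, the receptor tyrosine kinase at the centre of the pathway, had log2 values of 8.76, 8.65 and 9.11 in knockout muscle, against 8.31, 8.32 and 7.67 in control muscle. Each knockout array lay above each control array, as was the case for 6.74% of all genes, and control 3 stood well below the other controls. The means were 8.84 ± 0.24 and 8.10 ± 0.37 (SD, n = 3 each), a 1.68-fold higher level in knockout muscle (log2 fold change 0.75, SE 0.19, 95% confidence interval 0.30 to 1.19). The unadjusted p was 0.00448 and the limma adjusted p over all genes 0.326. In size the log2 difference exceeded those of 99.4% of all genes. Without control 3 the log2 fold change was 0.53 (limma adjusted p = 0.576). With any 1 of the 6 arrays left out it stayed between 0.53 and 0.86, the unadjusted p was at most 0.0181 and the adjusted p at least 0.356.

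Lrp4, the muscle receptor for agrin and partner of MuSK, had log2 values of 7.94, 7.70 and 7.38 in knockout muscle, against 7.30, 7.42 and 7.33 in control muscle. The control arrays lay close together, knockouts 1 and 2 lay above all of them, and knockout 3 lay among them. The means were 7.68 ± 0.28 in knockout and 7.35 ± 0.06 in control muscle (SD, n = 3 each; log2 fold change 0.32, SE 0.14, 95% confidence interval −0.002 to 0.65, limma adjusted p = 0.622). Without knockout 1 the log2 fold change was 0.19, and without knockout 3 it was 0.47 (limma adjusted p = 0.397). The size of the Lrp4 difference therefore turned on which knockout arrays entered.

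Agrn encodes agrin, the nerve's signal in its neural splice form, which muscle fibres and other cells also make without that form's activity. Its log2 values were 7.001, 6.90 and 7.01 in knockout muscle, against 6.96, 6.96 and 6.86 in control muscle. The groups overlapped, and all 6 arrays lay within a narrow band. The mean was 6.97 ± 0.06 in knockout and 6.93 ± 0.06 in control muscle (SD, n = 3 each; limma adjusted p = 0.951). The 95% confidence interval of the ratio of knockout over control ran from 0.892 to 1.20. The probe set does not separate the neural splice form from the others.

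Dok7, the cytoplasmic adaptor that binds and activates MuSK, had log2 values of 7.45, 7.46 and 7.72 in knockout muscle, against 7.72, 7.80 and 7.44 in control muscle. Knockout 3 and control 3 each lay nearer to the other group than to their own. Its log2 fold change was −0.11 (SE 0.13, 95% confidence interval −0.40 to 0.19, limma adjusted p = 0.891). Rapsn, the scaffold that holds receptors in clusters, had log2 values of 8.16, 7.63 and 7.71 in knockout muscle, against 8.56, 7.43 and 7.91 in control muscle. It was the most variable member, with control 1 the highest array and control 2 the lowest. The means were 7.83 ± 0.28 in knockout and 7.97 ± 0.56 in control muscle (SD, n = 3 each; log2 fold change −0.13, SE 0.26, limma adjusted p = 0.951). Without control 1 its log2 fold change was 0.16, and without control 2 it was −0.40. The 95% interval of the Rapsn ratio, 0.601 to 1.39, was the widest of the 9 members.

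Ache, the acetylcholinesterase that ends each transmission in the synaptic cleft, had log2 values of 8.06, 7.63 and 7.47 in knockout muscle, against 7.61, 7.43 and 7.41 in control muscle. Knockouts 1 and 2 lay above all controls, while knockout 3 lay within their range. The log2 fold change was 0.23 (SE 0.15, 95% confidence interval −0.12 to 0.59, limma adjusted p = 0.782). Without knockout 1 it was 0.06. Ncam1, the neural cell adhesion molecule, which denervated fibres are known to display along their length, had log2 values of 8.65, 8.01 and 8.21 in knockout muscle, against 8.41, 8.26 and 8.27 in control muscle. Its highest and lowest arrays were both knockouts. The log2 fold change was −0.03 (SE 0.16, 95% confidence interval −0.39 to 0.34, limma adjusted p = 0.987), and it ran from −0.21 without knockout 1 to 0.11 without knockout 2.

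Etv5, also called ERM, an ETS transcription factor known from mice to be needed for synaptic gene expression in fibres, had log2 values of 7.17, 6.76 and 6.93 in knockout muscle, against 6.88, 6.60 and 6.80 in control muscle. The groups overlapped, with knockouts 1 and 3 above all controls. The log2 fold change was 0.19 (SE 0.13, 95% confidence interval −0.11 to 0.49, limma adjusted p = 0.792). A dimmer probe set of Etv5, with means of 5.94 ± 0.11 in knockout and 5.98 ± 0.22 in control muscle near background, gave a log2 fold change of −0.04. The 2 Etv5 probe sets thus differed in sign, and neither passed. Prkar1a, a regulatory subunit of protein kinase A that is enriched at the junction, had log2 values of 8.87, 8.999 and 8.83 in knockout muscle, against 8.92, 8.79 and 8.91 in control muscle. The groups overlapped, and the ratio of knockout over control had a 95% interval of 0.872 to 1.19 (log2 fold change 0.03, limma adjusted p = 0.977).

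**Figure D2:**
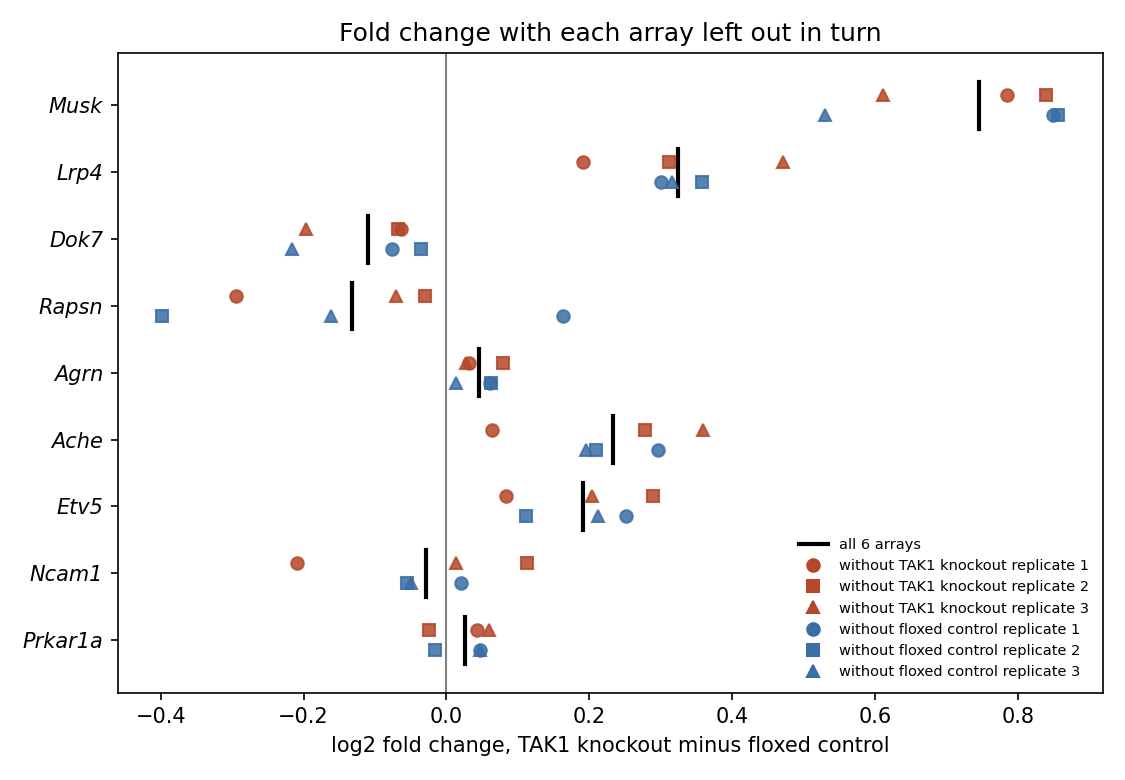
Log2 fold change of TAK1 knockout over floxed control muscle (horizontal axis) for each of the 9 synapse organisers with all 6 arrays (black bars) and with each array left out in turn (symbols, coloured by the group of the array left out). Musk stayed at 0.53 or above, while Rapsn, Ncam1 and Prkar1a crossed 0.

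Within groups, 4 members shared their highest array. Rapsn, Ache, Etv5 and Ncam1 were each highest in knockout 1 among knockouts and in control 1 among controls. Lrp4 was also highest in knockout 1 among knockouts, which made 5 of 9 members, whereas Musk, Dok7 and Agrn were highest in knockout 3. In control 3, Musk, Dok7, Agrn and Ache had their lowest control value. Pearson's r across the 6 arrays, which include the difference between groups, is given as a description without a test. The highest values among pairs of members were 0.87 for Lrp4 with Ache and 0.80 for Musk with Agrn and for Ache with Etv5. The lowest were −0.65 for Dok7 with Prkar1a and −0.60 for Agrn with Prkar1a. Of the 12592 other genes above background, those most like Musk over the 6 arrays were Cdkl1 (Pearson's r 0.994), Tbx3 (0.993), Glul (0.991) and Cux2 (0.991). Their log2 fold changes were 0.22, 0.09, 0.59 and 0.35, and none passed (limma adjusted p of 0.268 to 0.861). Those most like Lrp4 were Sdhaf1 (r 0.991), Eef1a1 (0.984), Med16 (0.979) and the predicted gene Gm6238 (0.979). With 12592 genes searched over only 6 arrays, such high values can arise between unrelated genes, so no link is drawn.

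The muscle acetylcholine receptor subunits, the pentamer that MuSK and rapsyn cluster, were set beside the organisers. Chrna1, the alpha subunit that binds acetylcholine, had log2 values of 10.45, 10.15 and 10.13 in knockout muscle, against 8.77, 8.65 and 8.57 in control muscle. It rose 3.00-fold (log2 fold change 1.58, SE 0.12, limma adjusted p = 0.00565), and the gap between the groups was far larger than the spread within either. Chrnb1, the beta subunit, had values of 9.32, 9.03 and 9.40 in knockout muscle, against 8.78, 8.28 and 8.37 in control muscle (log2 fold change 0.77, limma adjusted p = 0.196). Its groups did not overlap, and neither did those of the delta subunit Chrnd, whose 3 knockout values of 6.64 to 6.67 lay above control values of 6.17 to 6.29 (log2 fold change 0.41, limma adjusted p = 0.233). With Chrna1, that made 3 of 5 subunits with every knockout array above every control array, against 6.74% of all genes. Chrne, the subunit of the adult receptor that is made at the synapse, overlapped, with 8.72, 8.17 and 8.43 in knockout and 8.20, 8.16 and 7.96 in control muscle (log2 fold change 0.33, limma adjusted p = 0.625). Chrng, the fetal subunit that denervation is known to bring back, had both group means below background, at 5.67 ± 0.08 in knockout and 5.77 ± 0.35 in control muscle (SD, n = 3 each). Without Chrng, whose mean was lower in knockout muscle, the 4 subunits above background had log2 fold changes from 0.33 to 1.58. The range for the 9 organisers was −0.13 to 0.75, and of these only Musk exceeded 0.33, with Lrp4 just below at 0.32. Chrna1, Chrnb1 and Chrnd were already known to differ from earlier results of these data. The 3 of 5 subunits apart are therefore no independent result, and that count and the contrast of the 2 ranges are descriptions only. Whether the subunits differed from the organisers as groups was not tested.

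**Figure D3:**
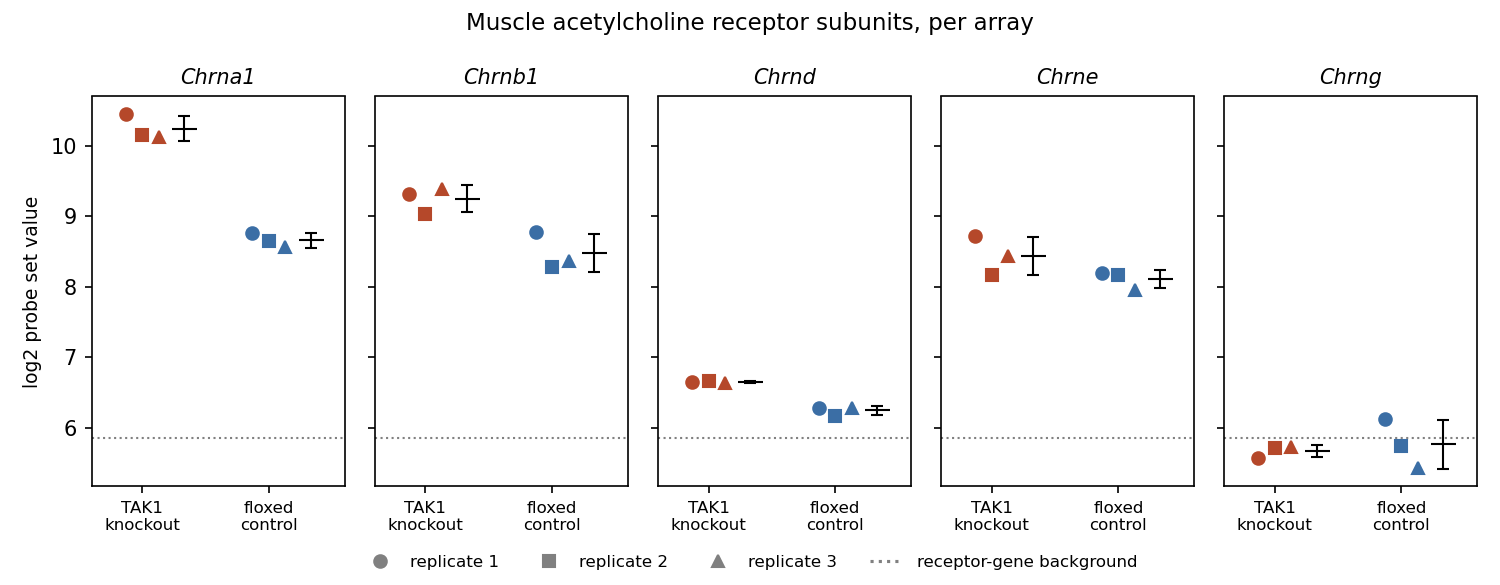
Log2 probe set values (vertical axis) of the 5 muscle acetylcholine receptor subunits in TAK1 knockout arrays (left of each panel) and floxed control arrays (right), with mean ± SD (n = 3) and the receptor-gene background as a dotted line. Chrna1, Chrnb1 and Chrnd show no overlap between groups (all higher in knockout muscle, against 6.74% of all genes), and Chrng lies around background. The differences of Chrna1, Chrnb1 and Chrnd were known from earlier results of these data, so their share is a description only.

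**Figure D4:**
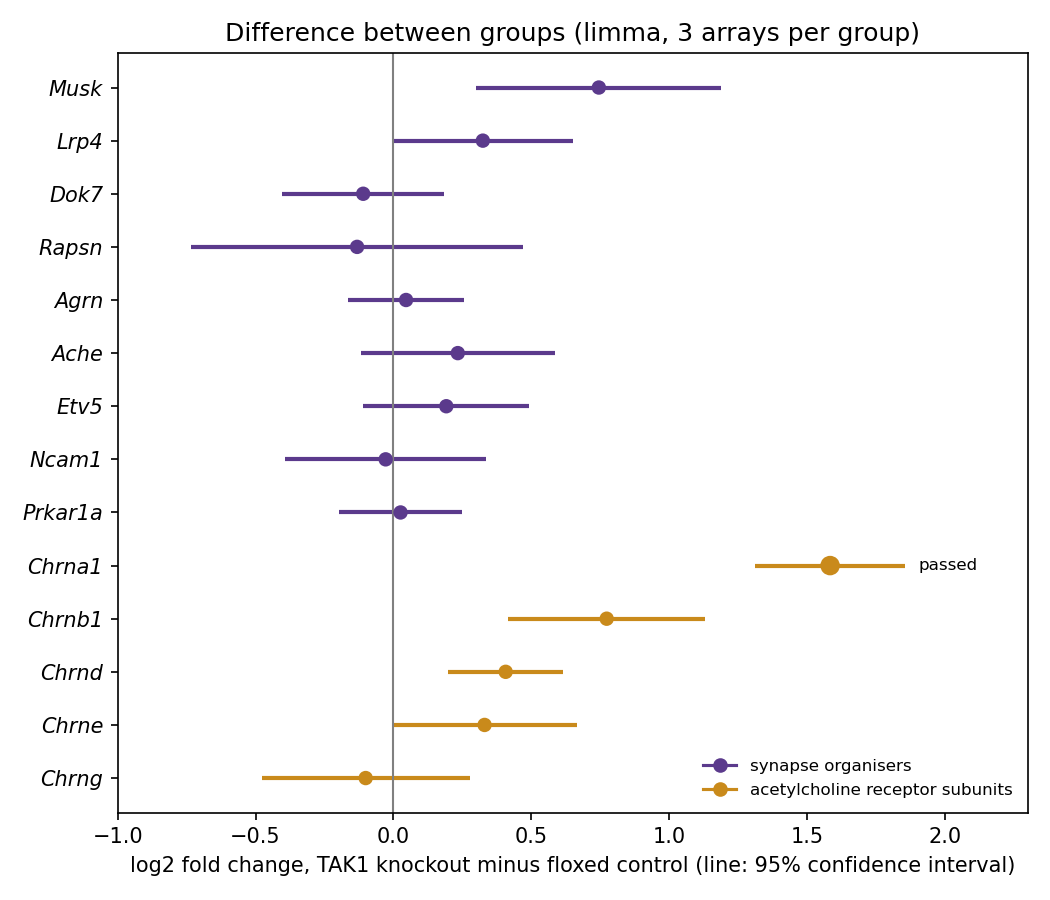
Log2 fold change of TAK1 knockout over floxed control muscle (horizontal axis) with its 95% confidence interval for the 9 synapse organisers and 5 receptor subunits. Only Chrna1 passed over all genes, and Musk is the only organiser whose interval lies clear of 0.

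Promoter windows are shown for Musk, the organiser with the largest difference, for Chrna1, the subunit that passed, and for Chrne, which carries the synaptic ETS element. Each window spans 250 bases before and 50 bases from a transcription start in RefSeq (build GRCm38.p6). Capitals mark E-boxes (CANNTG, the element of myogenic factors such as MyoD and myogenin) and the N-box (CCGGAA, the element of ETS factors), found on either strand. The E-box CAGCTG, a form that myogenic factors bind well, is contained in CANNTG. Positions count from the start site.
Musk, chr4:58285712-58286011, plus strand: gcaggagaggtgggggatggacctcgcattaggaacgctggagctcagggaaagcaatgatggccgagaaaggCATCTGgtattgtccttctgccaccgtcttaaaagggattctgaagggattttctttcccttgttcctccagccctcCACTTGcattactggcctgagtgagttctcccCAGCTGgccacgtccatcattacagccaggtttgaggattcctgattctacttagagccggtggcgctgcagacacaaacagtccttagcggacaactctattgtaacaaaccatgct
Chrna1, chr2:73580289-73580588, minus strand: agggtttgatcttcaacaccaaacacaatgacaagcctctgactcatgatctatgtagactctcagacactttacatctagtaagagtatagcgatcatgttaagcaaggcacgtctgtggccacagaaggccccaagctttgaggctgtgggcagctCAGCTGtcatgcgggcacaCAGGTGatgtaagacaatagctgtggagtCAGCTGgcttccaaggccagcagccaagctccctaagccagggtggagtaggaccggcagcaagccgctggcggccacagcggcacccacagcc
Chrne, chr11:70619145-70619444, minus strand: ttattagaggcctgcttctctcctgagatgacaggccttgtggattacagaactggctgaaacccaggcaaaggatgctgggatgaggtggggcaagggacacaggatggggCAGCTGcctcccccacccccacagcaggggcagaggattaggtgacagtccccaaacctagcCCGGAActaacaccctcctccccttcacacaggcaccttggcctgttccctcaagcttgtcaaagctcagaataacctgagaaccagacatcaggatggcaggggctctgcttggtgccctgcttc
The Musk window held 3 E-boxes, at −177, −100 and −68, of which the last was CAGCTG. The Chrna1 window held 3, at −92, −73 and −44, and the first and last of these were CAGCTG. In the Chrne window 1 CAGCTG stood at −138 and the N-box at −76. CANNTG is common, occurring in 72.3% of all 32851 RefSeq windows of this length, whereas CAGCTG was found in 16.3% and the N-box in 14.9%. RefSeq windows were at hand for 6 of the 10 organisers (14 windows, of which 6 belong to Prkar1a). All 6 genes had a window with CANNTG, against 74.99% of all genes in the table. CAGCTG was found for 3 genes (Musk, Etv5 and Prkar1a), against 18.3% of genes, and the N-box for 1 (Prkar1a), against 16.7%. A gene with more windows has more chances of a match. These are matches of letters and were not tested as sites.

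Of the 5 receptor subunits, 4 had a promoter window. The E-box form that myogenic factors bind well was found for 3 of the 4 (Chrna1, Chrne and Chrng), and the N-box for 1 (Chrne). The Chrng window held 2 such E-boxes, at −155 and −132, although both group means of Chrng lay below background. The Chrnb1 window held none, although the Chrnb1 groups did not overlap. Whether either motif goes with a difference was not tested. Other genes of the pathway were read as counts against the 22180 genes tested, of which 8.04% had an unadjusted p under 0.05. Of 23 listed agrin and MuSK signalling partners 21 were measured, and 0 passed over all genes (limma; 2 at an unadjusted p under 0.05), with a median log2 fold change of −0.06. The partners with the largest differences were Crk (−0.32, limma adjusted p = 0.557), an adaptor recruited by DOK7, and Pdzrn3 (−0.31, adjusted p = 0.621), a ubiquitin ligase for MuSK. They were followed by Macf1 (0.23, adjusted p = 0.689), a cytoskeletal linker at the synapse, and Abl2 (−0.22, adjusted p = 0.731), a kinase that acts with MuSK. Crk was lower in every knockout array than in any control, as were 6.65% of all genes, while the groups of the other 3 overlapped.

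Among 19 measured genes of the synaptic scaffold and basal lamina, 0 passed (limma; 3 at an unadjusted p under 0.05, all with positive values), and 13 had negative values, with a median of −0.10. Sntb1, a syntrophin of the dystrophin complex, had the largest value (log2 fold change 0.59, limma adjusted p = 0.443), with knockout 2 inside the control range. Utrn, the dystrophin relative concentrated at the junction, had log2 values of 9.03, 9.13 and 8.97 in knockout muscle, against 8.55, 8.77 and 8.81 in control muscle. The Utrn groups did not overlap, and the log2 fold change was 0.33 (limma adjusted p = 0.456). The groups of 2 genes were apart in the other direction, the syntrophin Sntb2 (−0.27) and plectin, Plec (−0.17), which were named after their values were seen (limma adjusted p of 0.645 and 0.737). That made 1 of 19 genes apart and higher and 2 apart and lower, against 6.74% and 6.65% of all genes. The laminin-binding integrin subunits Itga7 and Itga3 differed by log2 fold changes of 0.32 and 0.30 (limma adjusted p of 0.597 and 0.711).

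Of 15 genes of synaptic transcription and the neuregulin axis, 0 passed (limma; 1 at an unadjusted p under 0.05), with a median of 0.06. That gene was Nrg1, the neuregulin ligand, whose means of 5.48 in knockout and 5.03 in control muscle both lay below background, so no fold is given (limma adjusted p = 0.362). The myogenic factor Myod1 had a value of −0.34 and Runx1, a factor induced by denervation, 0.31 (limma adjusted p of 0.708 and 0.646). The corepressor Dach2 had a mean of 5.71 in knockout muscle, below background, and 5.98 in control muscle, just above it (adjusted p = 0.675), so no fold is given. Beside Prkar1a, 5 other protein kinase A subunits were measured and 0 passed (limma; 1 at an unadjusted p under 0.05). Prkar2a, the type II alpha regulatory subunit, had log2 values of 10.23, 10.25 and 10.20 in knockout muscle, against 10.47, 10.48 and 10.63 in control muscle. Every knockout value was lower than every control value, as for 6.65% of all genes (log2 fold change −0.30, SE 0.09, limma adjusted p = 0.444). Prkar2b, Prkacb and Prkaca had log2 fold changes of −0.27, −0.15 and 0.05. Of 9 measured genes of congenital myasthenia and cholinergic enzymes, 0 passed and 0 had an unadjusted p under 0.05 (limma). The largest value there was that of Slc25a1, the mitochondrial citrate carrier (log2 fold change −0.39, adjusted p = 0.714), followed by the glycosylation genes Alg2 (−0.20), Dpagt1 (−0.19) and Gfpt1 (−0.13).

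**Figure D5:**
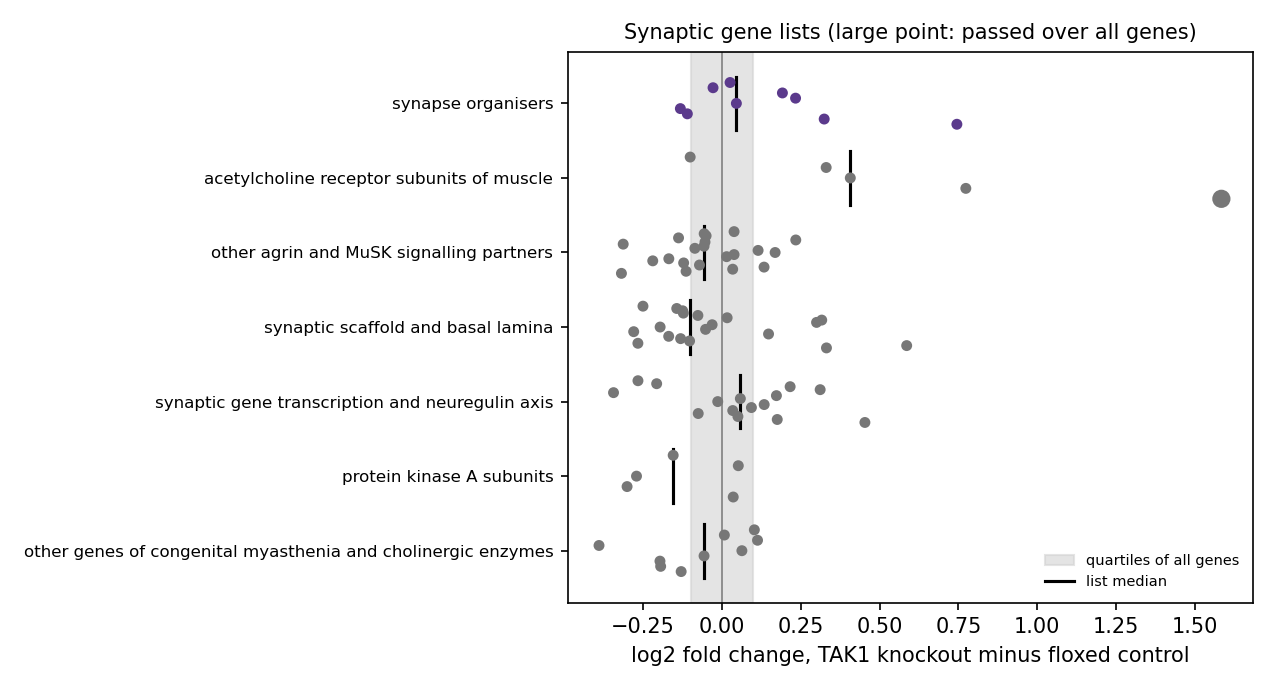
Log2 fold change of TAK1 knockout over floxed control muscle (horizontal axis) for each measured gene of 7 synaptic lists, 1 point per gene, with list medians as black bars and the range between the quartiles of all genes shaded. Chrna1 (large point, 1.58) is the only gene that passed, and Musk (0.75) lies apart from the other organisers.

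Cells that share some of these transcripts were looked at through their markers. Schwann cells, which also express Ncam1 and Agrn, had 5 of 8 markers measured, 3 of them above background, and the sum of their linear values was 292.4 to 324.8 in knockout and 300.2 to 316.8 in control muscle. Nerve markers had 7 of 7 measured but only 1 above background (Syt1), and the defining cholinergic genes Chat, Slc5a7 and Slc18a3 had means below it. The summed values of the 7 nerve markers were 266.0 to 291.1 in knockout and 268.1 to 294.6 in control muscle. With only Syt1 above background, this sum is mostly dim signal and cannot tell whether nerve content differed. Satellite cells, which also express Ncam1, had summed values of 792.4 to 920.5 in knockout and 907.3 to 955.7 in control muscle over 6 of 6 markers, of which 5 lay above background. Knockout 1 was lowest in that sum and highest in Ncam1, but the markers did not share 1 order. Sdc4 had log2 values of 8.25, 8.67 and 8.92 in knockouts 1, 2 and 3, whereas Pax7 had 6.98, 7.09 and 6.60. Chodl had the largest difference of the 6 (log2 fold change −0.57, limma adjusted p = 0.145). Each knockout array was lower in Chodl than each control array, as were 6.65% of all genes. The ranges of all 3 marker sums overlapped between groups. Sdc4 was the brightest satellite cell marker, with means of 8.61 in knockout and 8.58 in control muscle. No other marker of that list had a group mean above 7.37. The order of the arrays in Sdc4 thus weighs most in that sum and in its overlap, and a sum without Sdc4 was not computed.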

How the data were processed

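Muscle RNA of 6 mice, 1 array each, was analysed. The authors deposited 1 log2 value per probe set and array, and RMA, oligo and limma are named per the submitters' processing notes, with no version or order. RMA subtracts background and equalises the arrays' distributions, which compresses differences of dim genes. Array medians were 5.78 to 5.84. Scan dates were not used here, so scan batches were not tested, and the number of arrays limits precision.

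Symbols came from GEO's platform annotation. Of 41345 probe sets, 23521 had 1 symbol, 1814 several and 16010 none. The single-symbol probe set with the highest mean over the arrays stood for a gene (22180 genes, of which 21994 matched RefSeq of GRCm38.p6 by Entrez identifier). Background was the 95th percentile of 1394 olfactory and vomeronasal receptor genes. The comparison used limma 3.58.1 under R 4.3.3 (lmFit, eBayes, two-sided, Benjamini-Hochberg over all genes), tested on simulated data first. Figures used matplotlib 3.10.9.

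The 10 members and all lists were chosen with earlier results of these data known. Named were all measured members, Map3k7, the receptor subunits, up to 4 members of each other list with the largest change, and the 4 genes most like Musk and Lrp4. Utrn, Chrna1, Chrnb1 and Chrnd had known differences from those earlier results. Red blood cell markers had 0 of 4 genes measured on probe sets of their own. Median log2 fold changes were 0.01 for endothelial, 0.01 for macrophage and −0.15 for adipocyte markers. Tendon, fibre and fibroblast markers are described with the results. Alternatives were another normalization, probe set rule, filter, variance model, replicate block and leaving out each array. Same-numbered mice were checked for pairing and did not deviate together in every pair, which does not settle whether they were paired.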

Additional observations from a re-analysis of the deposited data

How the results depend on the processing

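No member passed the threshold in any of 144 refits. In 54 of the 90 refits with all arrays (6 of the settings) the fold change is fixed by construction, so they bear on the p only. The same holds for the mean over probe sets, except for Etv5 (log2 fold change 0.08), the only member with 2 single-symbol probe sets. Of the 54 refits that left out 1 array, 48 kept their direction. The 6 that changed sign concerned Rapsn (range −0.40 to 0.16), Ncam1 (−0.21 to 0.11) and Prkar1a (−0.024 to 0.059). With 1 array left out the log2 fold change ran from 0.53 to 0.86 for Musk, 0.19 to 0.47 for Lrp4, −0.22 to −0.04 for Dok7, 0.01 to 0.08 for Agrn, 0.06 to 0.36 for Ache and 0.08 to 0.29 for Etv5. Over the other 10 settings the adjusted p of Musk ran from 0.165 (only genes above the median gene) to 0.676 (no sharing of variance), and the lowest for Lrp4 was 0.413. Called members numbered 0 in every setting run (limma). At an unadjusted p under 0.05 the report's fit had 1 of 9. There were 2 (Musk and Lrp4) with genes above the median gene, where 11.6% of genes passed, above the receptor-gene level (10.9%) and with an intensity trend (8.46%). Without knockout 3 there were 3 (with Ache; 7.73% of genes), and in each other setting 1.

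The count of all genes called, 21 in the report, was 6 with every probe set tested, 53 with genes above the median gene, 45 with genes above the receptor-gene level, 36 with an intensity trend and robust prior, and 0 without sharing of variance (1612 at an unadjusted p under 0.05). It ran from 2 to 11 with 1 array left out, being 3, 2 and 11 without knockouts 1, 2 and 3 and 7 without each control. Filters test fewer genes and leaving out arrays uses fewer samples. For the other settings the cause was not tested.

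Chrna1 passed in every setting run except without sharing of variance (adjusted p = 0.359). Labels give both groups replicate numbers 1 to 3. Deviations of same-numbered arrays correlated at 0.06, 0.31 and −0.14 across 12601 genes above background. Those of arrays with different numbers correlated at −0.29 to 0.20. With 3 arrays per group, these values cannot decide whether the numbers pair the mice, and no label says that they do. With the replicate block 17 genes were called, the members' fold changes were the same by construction, and the adjusted p of Musk was 0.427.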
